A study of Homo sapiens with 4 samples.

Results

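PTPRM and 9 further receptor tyrosine phosphatases were followed in Huh7, a long-established cell line from a human liver cancer (hepatocellular carcinoma). The 10 genes were PTPRM, PTPRK, PTPRT, PTPRU, PTPRF, PTPRS, PTPRD, PTPRJ, PTPRA and PTPRG, out of 42067 gene names in the tables. They were taken by name, and of their 28 transcript models the model of each gene with the highest read total over the 4 libraries was used. The set was chosen by the H2O2 against mock difference of PTPRM in these libraries and filled by family, so differences between these groups are given here as a description, with no p-value for a member. Mock cells and cells given 300 µM hydrogen peroxide (H2O2) were kept for 4 days with daily change of medium, and each group had 2 libraries. The titles name these libraries H and Q in each group, letters whose sense is not given in the sources used here. Nothing in the labels says that the libraries came from separate cultures, so their spread may be technical.

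Receptor tyrosine phosphatases span the membrane and remove phosphate from tyrosines inside the cell, opposing tyrosine kinases. Their ectodomains resemble adhesion molecules: PTPRM, PTPRK and PTPRT bind the same receptor on a neighbouring cell and associate with cadherin-catenin junctions, while PTPRF, PTPRS and PTPRD bind proteoglycans and synaptic partners. Catalysis runs through a cysteine in a conserved loop, and H2O2 can reversibly oxidise this cysteine. RNA levels do not report on that oxidation.

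The coding bases around the cysteine of this loop motif are shown because all 10 genes share the motif. Neither catalysis nor oxidation at this cysteine was measured for any member. Each coding sequence was searched for codons of histidine and cysteine, then 5 residues, arginine, and serine or threonine. The search found this motif in 10 of 10 genes, and a further copy near the end of the coding sequence in 8. PTPRJ and PTPRG had 1 copy. The 36 bases of the first copy are given 5′ to 3′ from the GENCODE v29 transcript of the accession used, with the cysteine codon in capitals.
PTPRM: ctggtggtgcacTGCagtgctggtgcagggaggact
PTPRK: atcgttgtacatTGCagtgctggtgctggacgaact
PTPRT: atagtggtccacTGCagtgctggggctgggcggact
PTPRU: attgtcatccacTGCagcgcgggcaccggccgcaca
PTPRF: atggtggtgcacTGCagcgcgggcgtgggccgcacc
PTPRS: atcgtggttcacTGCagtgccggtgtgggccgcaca
PTPRD: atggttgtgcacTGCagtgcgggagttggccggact
PTPRJ: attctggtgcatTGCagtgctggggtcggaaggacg
PTPRA: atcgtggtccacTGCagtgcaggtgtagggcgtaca
PTPRG: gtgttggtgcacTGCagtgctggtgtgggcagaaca

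The cysteine codon was TGC in 10 of 10 genes. Against PTPRM the window differed at 6 bases in PTPRT, 9 in PTPRK and 14 in PTPRU, the receptors closest to it in domain structure, and at 7 to 10 bases in the other 6 genes. The further copy in PTPRM, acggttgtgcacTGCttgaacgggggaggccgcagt, differed from its first copy at 15 of 36 bases. Every first window lay in coding sequence across the junction of 2 exons, so the genome span includes an intron. In GRCh38 the PTPRM window spanned chr18:8376184-8376480 on the plus strand, in exons 25 and 26 of 33. Those of PTPRK and PTPRT lay at chr6:127983359-127985737 and chr20:42106903-42110349 on the minus strand, each in exons 23 and 24 of 31. That of PTPRU lay at chr1:29312690-29315390 on the plus strand, in exons 23 and 24 of 31. The PTPRF window lay at chr1:43619186-43619306 on the plus strand (exons 27 and 28 of 34), that of PTPRS at chr19:5212232-5212353 on the minus strand (exons 30 and 31 of 37) and that of PTPRD at chr9:8341960-8375952 on the minus strand (exons 36 and 37 of 43). On the plus strand lay the windows of PTPRJ at chr11:48163602-48164398 (exons 23 and 24 of 25), PTPRA at chr20:3022204-3022707 (exons 19 and 20 of 28) and PTPRG at chr3:62271539-62272964 (exons 21 and 22 of 30).

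The libraries held 78126878 to 88409567 mapped read mates, and with 1 model per gene the tables held 103851326 to 113082498 reads per library. Levels are CPM, read counts scaled to the effective library size after TMM normalisation, and 27263 genes with at least 40 reads over the 4 libraries entered the fit. The 10 hepatocyte markers examined all had reads, with sums of 6039 to 22242 CPM per library, lowest in mock Q. The lists for other cell types were low, each 5 genes, at 2.41 to 3.25 CPM in sum for endothelial, 15.6 to 25.6 for fibroblast and 1.89 to 10.0 for neuronal or endocrine markers. Among blood markers the leukocyte phosphatase PTPRC lay between 0.0516 and 0.273 CPM. The blood marker HBB was at 0 reads in both H2O2 libraries and the fibroblast marker LUM in H2O2 H. The 12 hypoxia genes summed to 8598 and 2383 CPM in mock H and Q and to 4794 and 3899 CPM in H2O2 H and Q. By this sum the letters lay much farther apart in mock than in H2O2. In bulk RNA, fewer cells with a transcript and less of it per cell cannot be told apart.

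PTPRM, receptor phosphatase mu, was the member with the largest difference. Its reads numbered 654 and 818 in mock H and Q and 66 and 77 in H2O2 H and Q, which gave 6.75, 6.76, 0.646 and 0.644 CPM. Both H2O2 libraries lay far below both mock libraries, with 9.57% of the mock level left in letter H and 9.53% in letter Q. The fitted log2 difference of H2O2 over mock was −3.39 (SE 0.26), a level 10.5-fold lower. Exact 95% Poisson intervals ran from 605 to 706 reads in mock H and from 51.0 to 84.0 reads in H2O2 H. Such intervals cover counting error only and take the reads as independent. The table totals exceed the mapped mates, so the intervals may be too narrow even for that error. Both deposited PTPRM models gave nearly the same count, the lower being 97.0% to 99.0% of the higher. Among all 27263 genes the difference ranked 36 from the lowest, and among the 18279 genes with a mean of at least 1 CPM it ranked 15. In the annotation an exon of AP001094.1 on the opposite strand overlaps an exon of PTPRM, and whether counting used strand is not given in the sources used here.

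**Figure D1:**
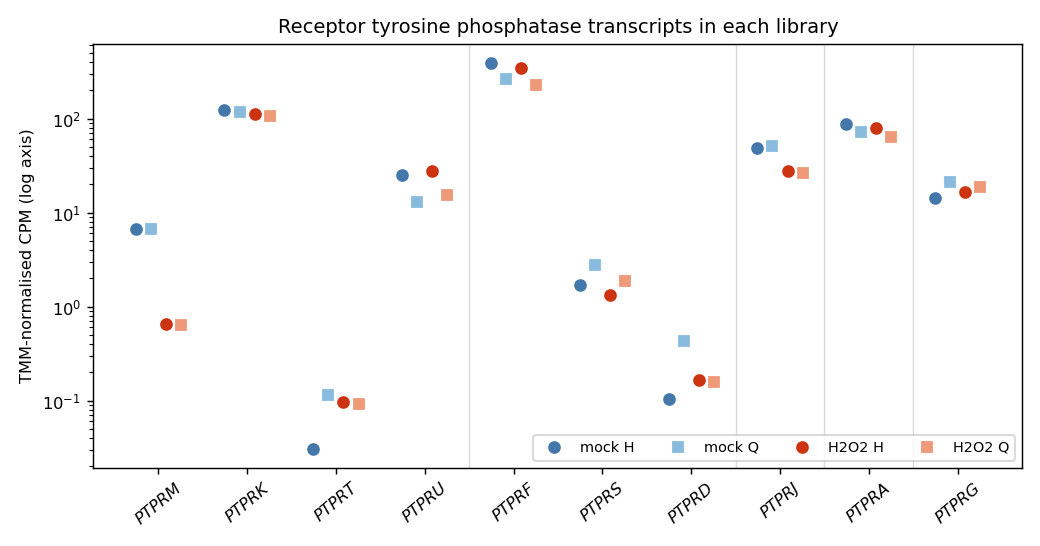
Level of each receptor phosphatase in the 4 libraries as TMM-normalised CPM on a log axis, with circles for letter H and squares for letter Q, in blue for mock and red for H2O2. Grey lines part the receptor classes. PTPRM sits near 6.75 CPM in mock and 0.645 CPM in H2O2, and both red points of PTPRJ also lie below its blue ones.

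In the other receptors of the PTPRM class the groups lay closer together. PTPRK, the kappa receptor, measured 124 and 117 CPM in mock H and Q and 111 and 107 CPM in H2O2 H and Q. Its H2O2 libraries lay just below its mock libraries, by a log2 difference of −0.14 (SE 0.18). An exon of AL590006.1 on the opposite strand overlaps a PTPRK exon in the annotation. PTPRU measured 25.4 and 13.0 CPM in mock and 28.0 and 15.6 CPM in H2O2 (0.18, SE 0.44), with groups that overlapped and libraries ordered by letter. Leaving out H2O2 library H gave −0.30, and leaving out mock library Q gave −0.22. PTPRT, the rho receptor, had 3 and 14 reads in mock H and Q and 10 and 11 in H2O2 H and Q, under the 40 reads required, so 9 of 10 members entered the fit. Its exact 95% Poisson intervals were 0.619 to 8.77 and 7.65 to 23.5 reads in mock H and Q and 4.80 to 18.4 and 5.49 to 19.7 in H2O2 H and Q. Fits that let PTPRT in gave log2 differences of 0.34 to 0.37, while the ratio was positive in letter H and negative in letter Q, and no direction is read from these few reads.

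PTPRF, the leukocyte common antigen-related receptor (LAR), was the most abundant member. It measured 388 and 263 CPM in mock H and Q and 342 and 225 CPM in H2O2 H and Q. The groups overlapped, and within each letter the H2O2 library was slightly lower (−0.20, SE 0.32). Without mock library H or H2O2 library Q the PTPRF value turned positive, up to 0.11. PTPRS, the sigma receptor for heparan and chondroitin sulfate proteoglycans, measured 1.71 and 2.75 CPM in mock and 1.33 and 1.86 CPM in H2O2 (−0.49, SE 0.36). Its groups overlapped too, and the value was −0.11 without mock library Q. PTPRD, the delta receptor, had 10 and 52 reads in mock H and Q and 17 and 19 in H2O2 H and Q. The mock libraries lay on either side of the H2O2 libraries (−0.72, SE 0.76), and without mock library Q the value was 0.65.

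PTPRJ, also known as DEP-1 or CD148, dephosphorylates receptor tyrosine kinases. It measured 48.4 and 51.0 CPM in mock H and Q and 28.0 and 26.3 CPM in H2O2 H and Q. Both H2O2 libraries lay below both mock libraries, and PTPRJ and PTPRM were the members with the largest differences (−0.87, SE 0.18, for PTPRJ). Between libraries of letter H the log2 difference was −0.79 and between those of letter Q −0.95, both from CPM plus 0.1. The shorter PTPRJ model, NM_001098503, held 1179 and 1917 reads in mock H and Q and 903 and 1102 in H2O2 H and Q. That was 25.2% and 31.1% of the count of the longer model in mock, and 31.6% and 35.0% in H2O2. The models share exons, so these percentages are not isoform shares.

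PTPRA, which activates SRC-family kinases by removing their inhibitory phosphate, measured 87.6 and 72.7 CPM in mock and 80.2 and 63.5 CPM in H2O2. The groups overlapped (−0.16, SE 0.22), and the value was 0.0082 without H2O2 library Q. An exon of VPS16 on the same strand overlaps a PTPRA exon in the annotation, so reads there cannot be assigned with confidence. PTPRG, whose ectodomain resembles carbonic anhydrase and binds contactins, measured 14.3 and 20.99 CPM in mock and 16.6 and 18.8 CPM in H2O2. Its H2O2 libraries lay between its mock libraries (0.01, SE 0.26). PTPRG also has an antisense gene with overlapping exons, PTPRG-AS1.

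**Figure D2:**
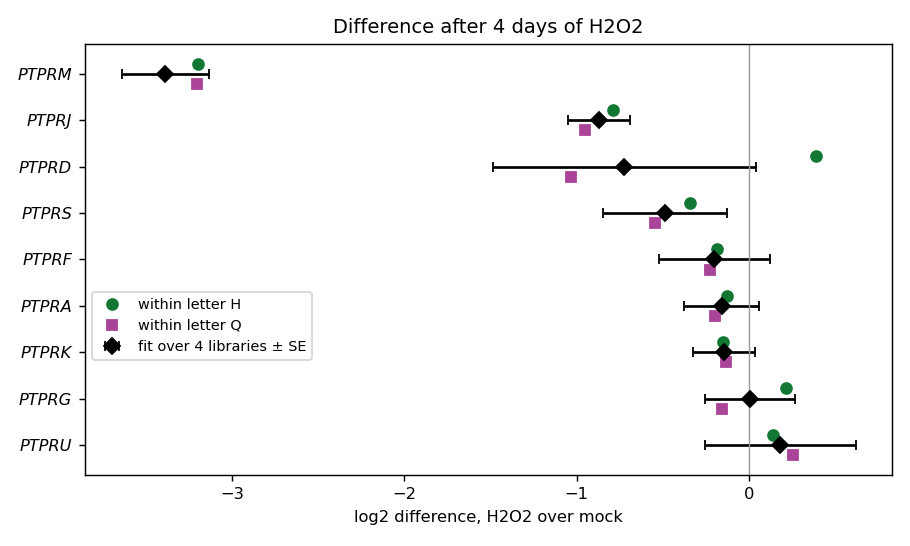
Log2 difference of H2O2 over mock for the 9 receptor phosphatases that entered the fit. Diamonds are the fit over 4 libraries with its SE, green circles the ratio within letter H and purple squares that within letter Q, both from CPM plus 0.1; PTPRM stands at −3.39 and PTPRJ at −0.87, while the PTPRD and PTPRG ratios point in opposite directions in the 2 letters.

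Of the 9 members in the fit, 7 had a lower value in H2O2 under TMM and RLE scaling, and 8 under upper quartile scaling or totals alone, where PTPRG turned negative. Over all genes 52.8% had a lower value, and the median was −0.20 for the members and −0.03 for all genes. Both H2O2 libraries lay below both mock libraries in 3 members (PTPRM, PTPRK and PTPRJ), against 21.4% of all genes, and above them in 0 members, against 18.2%. By edgeR's quasi-likelihood test with Benjamini-Hochberg adjustment 0 genes passed 5% (0% of 27263), and so 0 members. At an unadjusted p under 0.05 there were 1871 genes (6.86%). Genes called numbered 57 of 27263 with the letter as a replicate block, 9 of 39529 without a filter and 141 of 27263 with DESeq2. PTPRM was the 1 member called in each of these settings. It was picked by this same contrast, so its passing is no support for the difference. By limma 0 genes were called in each of the 3 settings run. Since the members were proposed with this contrast known, nothing is read from these counts. An exact permutation test of 2 libraries against 2 cannot go below p = 0.333.

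Levels were compared between genes per kilobase of the longest coding transcript. In mock the order was PTPRF (42.1 ± 11.5 CPM per kilobase, SD, n = 2), PTPRA (21.5 ± 2.83), PTPRK (19.8 ± 0.770), PTPRJ (6.33 ± 0.236), PTPRU (3.44 ± 1.57), PTPRG (1.96 ± 0.525), PTPRM (1.11 ± 0.00109), PTPRS (0.351 ± 0.116), PTPRD (0.0269 ± 0.0233) and PTPRT (0.00575 ± 0.00470). PTPRA and PTPRK overlapped. PTPRU and PTPRG were parted only by 2.331 against 2.327 CPM per kilobase in mock library Q. That gap depends on the length taken. The counted models had 4470 bases for PTPRU and 5122 for PTPRJ, against 5579 and 7851 in their longest transcripts. With the lengths of the counted models the PTPRU and PTPRJ levels would be higher, and the order in mock was the same. In H2O2 the PTPRM level was 0.106 ± 0.000199 CPM per kilobase, below that of PTPRS (0.251 ± 0.0586), so PTPRM moved from place 7 to place 8. Both PTPRM SDs lie far below counting error, so they do not measure precision. In H2O2 H alone the 95% Poisson interval of its 66 reads ran from 51.0 to 84.0. PTPRJ (3.46 ± 0.149) and PTPRU (3.91 ± 1.58) overlapped in H2O2, and PTPRJ stood above PTPRU when the length of the accession used was taken. PTPRF made up 39.8% to 46.7% of the summed level of the 10 genes per kilobase in each library. PTPRM made up 1.03% and 1.297% in mock H and Q and 0.112% and 0.146% in H2O2 H and Q.

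**Figure D3:**
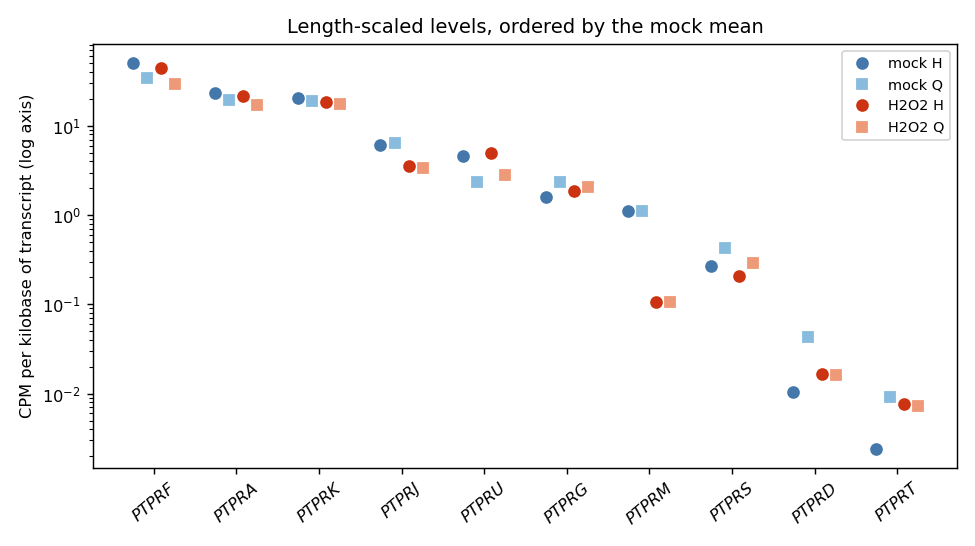
CPM per kilobase of the longest coding transcript on a log axis, genes ordered by their mock mean, with circles for letter H and squares for letter Q, in blue for mock and red for H2O2. PTPRF leads at 42.1 CPM per kilobase in mock, and PTPRM (1.11 in mock, 0.106 in H2O2) and PTPRJ (6.33 and 3.46) have their red points under their blue ones, those of PTPRM below those of PTPRS.

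The letters give a contrast that did not enter the choice of the members. It was tested with edgeR's quasi-likelihood test with treatment and letter as terms, which leaves 1 residual degree of freedom, and was added after the data were seen. PTPRU was lower in letter Q than in letter H in both groups, at 14.3 against 26.7 CPM on average, by a log2 difference of −0.91 (SE 0.15, edgeR adjusted p = 0.0328). It was the 1 member of 9 to pass, against 5.16% of all genes (1407). With totals alone the adjusted p of PTPRU was 0.0549 and its value −0.66, while that scaling moved the median of all genes from 0.03 to 0.28. PTPRF was also lower in letter Q in both groups (−0.58, SE 0.13) and did not pass (edgeR adjusted p = 0.0603, and 0.0140 with DESeq2). PTPRS (0.58, SE 0.23) and PTPRG (0.37, SE 0.17) had higher values in letter Q in both groups and did not pass (edgeR adjusted p = 0.189 and 0.254). PTPRM differed by −0.00053 (SE 0.22) and PTPRJ by −0.01 (SE 0.14) between the letters. The hepatocyte marker sum was also lower in letter Q in both groups. It was 6039 against 18936 CPM in mock and 12677 against 22242 CPM in H2O2. Of these markers TTR alone was higher in letter Q, at 25.9 against 17.7 CPM in mock and 20.5 against 14.8 CPM in H2O2. The part of the marker sum in the values of PTPRU and PTPRF was not tested.

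**Figure D4:**
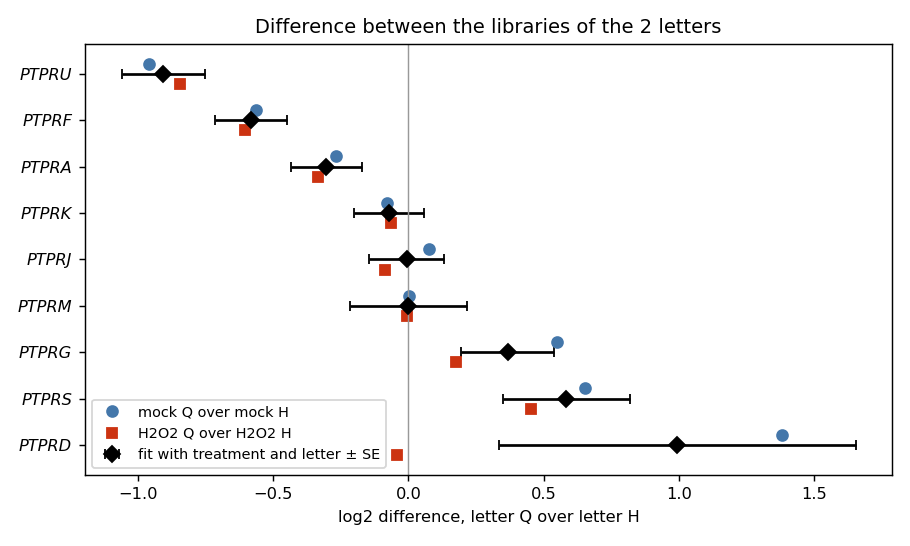
Log2 difference of letter Q over letter H for 9 receptor phosphatases. Diamonds are the fit with treatment and letter as terms and its SE, blue circles the mock libraries and red squares the H2O2 libraries, both from CPM plus 0.1; PTPRU lies at −0.91 with both of its groups to the left of 0, and PTPRM lies at 0.

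The genes whose profile over the 4 libraries came closest to that of PTPRM were found by the Euclidean distance between centred log2(CPM + 0.1) values among genes with a mean of at least 1 CPM. They were TMC4, a transmembrane channel-like gene (distance 0.382), CEACAM7, an adhesion molecule (0.484), the hedgehog ligand gene DHH (0.579), the serine protease gene PRSS22 (0.621) and the long intergenic RNA model linc_TCONS_00011203 (0.781). TMC4 measured 8.29 and 6.72 CPM in mock and 0.528 and 0.653 CPM in H2O2. CEACAM7 measured 4.16 and 4.98 CPM in mock and 0.264 and 0.443 CPM in H2O2. DHH measured 2.80 and 2.23 CPM in mock and 0.343 and 0.251 CPM in H2O2. In each of the 5 both H2O2 libraries lay below both mock libraries, which the measure of likeness itself favours.

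For the lists that follow, the shares over all genes were 52.8% with a lower value and 6.86% with an unadjusted p under 0.05. The lists were chosen with earlier results of these data known, so nothing is read from their counts. The other 10 receptor phosphatases were all in the fit, 8 with lower and 2 with higher values and a median of −0.30. By edgeR 0 passed, and 1 had an unadjusted p under 0.05. PTPRB, an endothelial receptor that acts on VE-cadherin, measured 12.1 and 10.8 CPM in mock H and Q and 3.57 and 7.63 CPM in H2O2 H and Q (−1.03, SE 0.40). PTPRH measured 5.59 and 12.6 CPM in mock and 2.68 and 6.37 CPM in H2O2 (−1.01, SE 0.57), lower within each letter. PTPRN, of neuroendocrine secretory vesicles, measured 8.09 and 0.157 CPM in mock and 1.69 and 0.853 CPM in H2O2 (−1.69, SE 1.502), and without mock library H the value was 3.01. Among 18 cytosolic classical phosphatases 12 had lower and 6 higher values, with a median of −0.10, and 0 passed (edgeR, 1 at an unadjusted p under 0.05). PTPN20A and PTPN20B carried identical counts and are in effect 1 measurement (1.43, SE 0.62), and PTPN5 differed by −1.41 (SE 1.08), or 0.81 without mock library H.

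Junction partners of the PTPRM class had 6 of 9 lower and 3 higher values, with a median of −0.21. By edgeR 0 passed, and 3 had an unadjusted p under 0.05, against 6.86% of all genes. This list too was chosen with earlier results known, so nothing is read from that count. E-cadherin, CDH1, measured 301 and 211 CPM in mock H and Q and 97.7 and 82.7 CPM in H2O2 H and Q (−1.505, SE 0.26). Plakoglobin, JUP, measured 276 and 313 CPM in mock and 84.2 and 126 CPM in H2O2 (−1.48, SE 0.27). BCCIP, a PTPRM-binding protein, was at 76.4 and 63.0 CPM in mock and 111 and 94.5 CPM in H2O2 (0.56, SE 0.21). Beta-catenin, CTNNB1, differed by 0.27 (SE 0.23) and p120-catenin, CTNND1, by −0.14 (SE 0.21), both named after their values were seen.

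Enzymes that cleave receptor ectodomains had 9 of 11 lower and 2 higher values, with a median of −0.05, and 0 passed (edgeR, 1 at an unadjusted p under 0.05). The proprotein convertase FURIN measured 447 and 391 CPM in mock and 287 and 298 CPM in H2O2 (−0.52, SE 0.21). The gamma-secretase subunit NCSTN differed by −0.47 (SE 0.18), and PCSK6 by 0.31 (SE 0.41). Ligands and adaptors of the LAR class had 13 of 19 lower and 6 higher values, with a median of −0.07, and 0 passed (edgeR, 0 at an unadjusted p under 0.05). In this list the liprin gene PPFIA4 differed by −1.36 (SE 1.09), from 63.2 and 4.57 CPM in mock to 12.8 and 13.5 CPM in H2O2, and by 1.53 without mock library H. The glypican GPC1 differed by −0.75 (SE 0.47), or 0.01 without mock library Q, and the exchange factor TRIO by −0.59 (SE 0.38).

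Contactins and the growth factors pleiotrophin and midkine had 4 of 8 genes in the fit, 2 lower and 2 higher, and 0 passed (edgeR, 0 at an unadjusted p under 0.05). Their largest values were in CNTN1 (0.77, SE 0.81), CNTN3 (−0.48, SE 1.01) and MDK (0.22, SE 0.32), each of which turned sign without H2O2 library H. Kinases that receptor phosphatases act on had 9 of 10 genes in the fit, 8 lower and 1 higher, with a median of −0.23. By edgeR 0 passed, and 1 had an unadjusted p under 0.05. ERBB2 differed by −0.63 (SE 0.35) and MET by −0.47 (SE 0.25). The insulin receptor gene INSR measured 82.9 and 99.5 CPM in mock and 57.7 and 61.1 CPM in H2O2 (−0.62, SE 0.19). Mitotic genes had 10 of 10 higher values, with summed levels of 1475 and 996 CPM in mock H and Q and 2235 and 1575 CPM in H2O2 H and Q, and their part in the differences above was not tested.

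**Figure D5:**
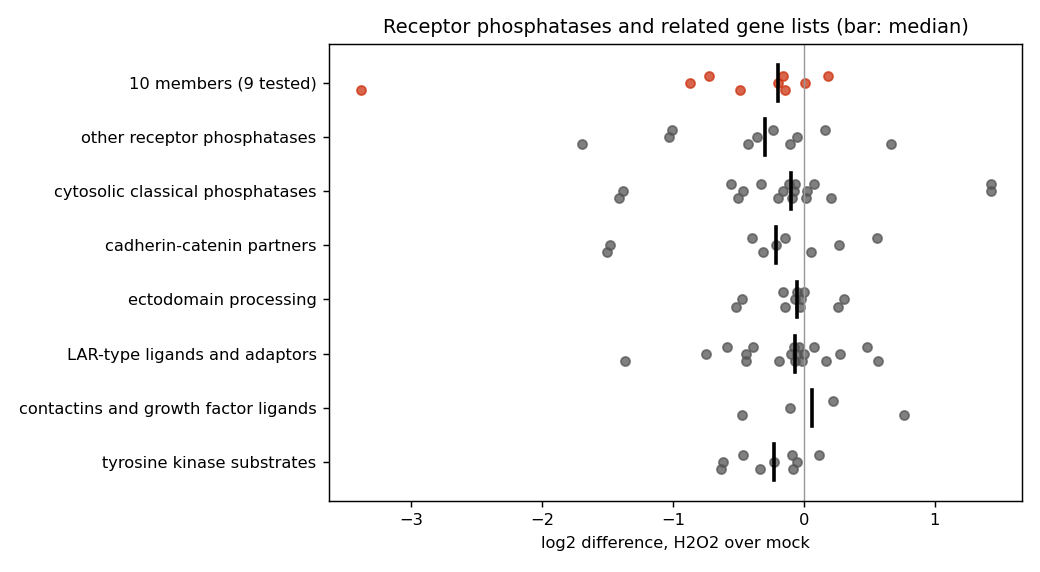
Log2 difference of H2O2 over mock for each gene in the fit, by list, with a black bar at the median of each list. The 9 members in the fit are in red, and the other lists, with the other receptor phosphatases among them, are in grey. PTPRM at −3.39 lies farther from 0 than any other gene plotted, and the medians of the lists lie between −0.30 and 0.06.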

How the data were processed

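RNA was sequenced from 2 mock and 2 H2O2 libraries of Huh7 cells. Per the file headers, each of 58146 transcript models in the deposited tables carries a read count and its FPKM. The submitters' processing notes name Cuffdiff, TopHat 1.3.3, Bowtie 0.12.2 and CASAVA, with the builds mm8, hg19 and GRCh37 and no roles. Counting program, annotation and strand are not given in the sources used here. FPKM as deposited did not follow read count over length, by a factor that changed with exon number, so it served only for alternatives.

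Isoforms repeat reads, so 1 model per gene was used, that of the highest total. These totals exceed the mapped mates of the alignment summaries, and the source of the excess was not tested. Genes with at least 40 reads over the 4 libraries were fitted with edgeR 4.0.16 (R 4.3.3; TMM; quasi-likelihood, two-sided; common biological coefficient of variation 0.311; 2 residual degrees of freedom), and checked on simulated data. DESeq2 1.42.0, limma 3.58.1, other scalings, filters and left-out libraries were alternatives. Sequences, lengths and exons came from GENCODE v29 (GRCh38), matched by RefSeq accession. Gene names are as deposited.

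The members and lists were chosen with earlier results of these data known. All members are named, the 3 genes of largest difference in each list, and the 5 genes closest to PTPRM. The summed level of the blood marker list is not reported here.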

Additional observations from a re-analysis of the deposited data

Results flagged for a closer look

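Some genes differed in opposite directions within the 2 letters, each from 1 mock and 1 H2O2 library, so the difference was not tested. PTPRT had a log2 value of 0.60 in letter H and −0.17 in letter Q, and PTPRD 0.39 and −1.03. PTPRG had 0.22 and −0.16. Among named genes that are not members, PTPRN had −2.19 and 1.89, PTPN5 −1.29 and 0.25, and PPFIA4 −2.29 and 1.54. Opposite signs occurred in 33.2% of all genes tested and in 2 of the 9 members in the fit.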

How the results depend on the processing

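PTPRM kept a negative value in all 18 alternatives, from −3.45 with totals alone to −2.66 with limma on log2(CPM + 0.5). The constant added there pulls in low levels. Without each library in turn the PTPRM value ran from −3.39 to −3.38. That narrow range reflects near-equal PTPRM levels within each group and is not a measure of error. PTPRJ ran from −0.95 to −0.79 and PTPRK from −0.21 to −0.09. PTPRS also kept its sign, while PTPRU, PTPRF, PTPRD, PTPRA and PTPRG changed sign in 2, 2, 4, 1 and 6 of 18. Between 6 and 8 members were lower in each alternative. The count of genes called was 0 as reported, 9 without a filter, 141 with DESeq2 and 57 with the letter as a replicate block. The cause was not tested. Same-letter libraries deviated together (r = 0.64 across 18279 genes, which are not independent replicates), but 2 pairs and an unexplained letter do not establish pairing. For the letter contrast 1407 genes passed, against 2168 with totals alone and 2792 with DESeq2. Depth limits PTPRT and PTPRD, which had at most 14 and 52 reads in a library.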
